A study of Mus musculus with 2 samples.

Results

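The genes described here are 10 products of the mouse lung epithelium: the surfactant genes Sftpc, Sftpb, Sftpa1, Sftpd, Abca3 and Lamp3, the secretoglobin genes Scgb1a1, Scgb3a1 and Scgb3a2, and the lectin gene Reg3g. They were taken by symbol from the 55357 gene identifiers of the deposited matrices, and each symbol matched 1 row. The study measured lungs of female BALB/c mice carrying orthotopic tumours of K7M2, a mouse osteosarcoma line that spreads to the lung. One group received 1V209-Cho-Lip, a formulation of 1V209, which is known as an agonist of Toll-like receptor 7, and the control group received PBS. Each group was 1 droplet-based (10x Genomics) single-cell library made from the pooled lungs of 3 mice, so that treatment and library cannot be told apart and no difference below has a replicate check. Dose, time and age were not given in the sources used here.

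After filters and removal of called doublets, 12265 cells with 46108049 unique molecular identifiers (UMIs, one per captured transcript) remained in the 1V209-Cho-Lip library and 12654 cells with 46481928 UMIs in the PBS library, at medians of 2506 and 2198 UMIs per cell. The libraries shared 268 of their barcode sequences. Cells were classed by clusters built without the 10 genes and named from other markers. This gave 172 and 181 alveolar type 2 (AT2)-like, 217 and 83 alveolar type 1 (AT1)-like, 75 and 108 club-like and 43 and 27 ciliated-like cells, in the order 1V209-Cho-Lip and PBS, which is kept throughout. All 11 AT2 markers had UMIs in the AT2-like cells of each library, as did all 12 AT1 markers in the AT1-like cells, all 10 club markers in the club-like cells and all 9 ciliated markers in the ciliated-like cells. These lists had served to name the classes, and a UMI alone does not separate them: all 11 AT2 markers also had UMIs in club-like cells. Summed AT2 markers stood at 14090 and 17126 CPM in AT2-like and at 926 and 1867 CPM in club-like cells. Summed club markers stood at 21331 and 17570 CPM in club-like but at 27421 and 27150 CPM in ciliated-like cells. A further 74 and 91 epithelial cells carried markers of more than 1 lineage and were kept apart. Levels are given as CPM, the UMIs of a gene per 1000000 UMIs of the class, and a ratio is the 1V209-Cho-Lip over the PBS level with an exact 95% interval that covers counting error only. A gene counts as past the fold at a ratio of 1.5 or more, or at its inverse or less, with at least 20 UMIs over both libraries.

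Pulmonary surfactant is the film of lipid and protein that AT2 cells secrete to lower surface tension in the alveolus. Its lipids and the small hydrophobic proteins SP-B and SP-C are packed into lamellar bodies, while the collectins SP-A and SP-D bind microbes and help clear them. Club cells of the conducting airway secrete secretoglobins, of which CC10, the product of Scgb1a1, is the main one, and airway cells can make the antibacterial C-type lectin REG3G. Alveolar macrophages take up and break down used surfactant.

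Each surfactant protein gene lay mainly in AT2-like cells, and club-like cells held most of the Scgb1a1 RNA. Of all Sftpc UMIs, 76.7% and 68.8% lay in AT2-like cells and 21.0% and 26.7% in the mixed epithelial cells. AT2-like cells likewise held 73.1% and 64.1% of Sftpb, 76.1% and 67.7% of Sftpa1, 72.4% and 68.1% of Sftpd, and 74.8% and 67.0% of Lamp3 UMIs. Abca3 was the exception among the surfactant genes, with 30.4% and 30.5% of its UMIs in AT2-like cells and 55.2% and 54.2% outside the epithelium. Club-like cells held 65.1% and 68.9% of Scgb1a1 and 52.3% and 71.9% of Scgb3a2 UMIs. Most Reg3g UMIs, 78.3% and 70.7%, lay in ciliated-like cells, where 1 cell per library held 72.9% and 69.3% of all Reg3g UMIs.

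**Figure D1:**
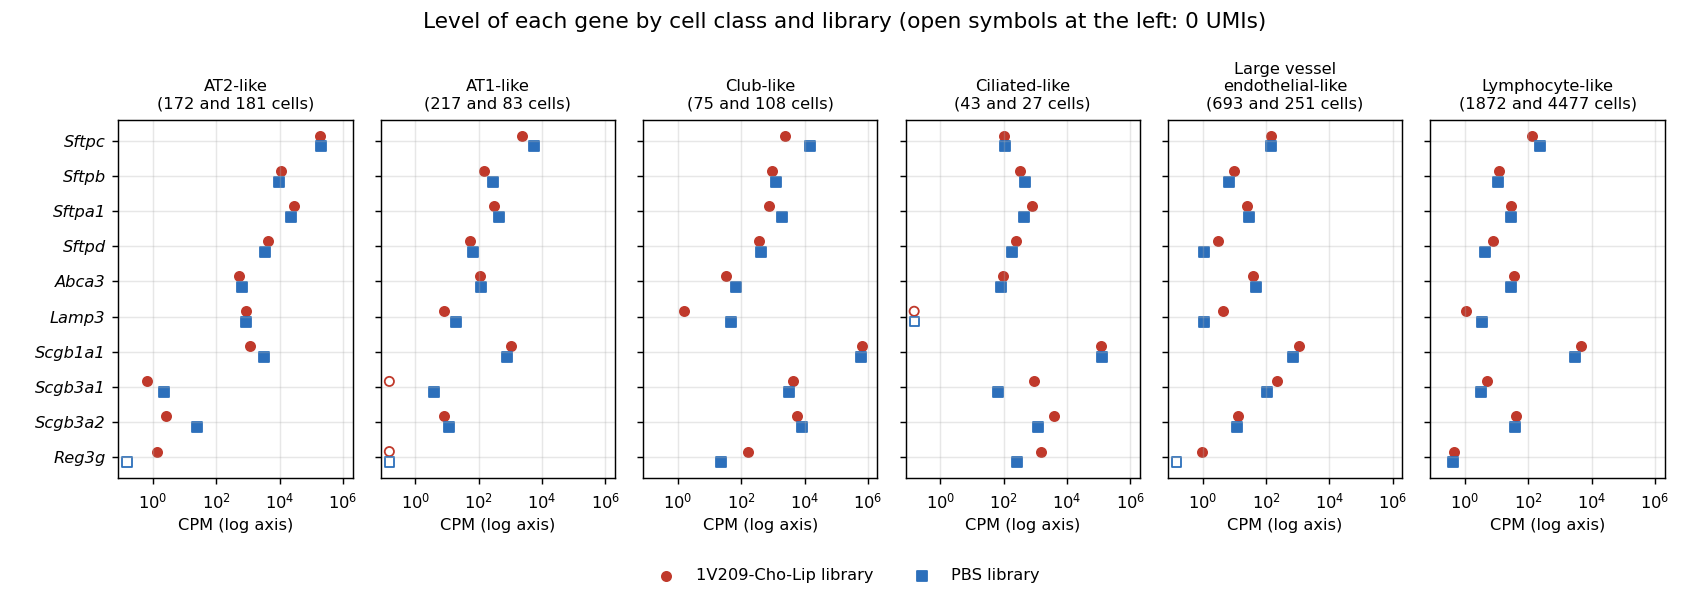
Level of each gene in CPM (log axis) in 6 cell classes, with 1 point per library; open symbols at the left edge stand for 0 UMIs. The surfactant genes are highest in AT2-like cells, where Sftpc stood at 191396 and 207945 CPM, and Scgb1a1 is highest in club-like cells at 644538 and 615344 CPM.

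In AT2-like cells Sftpb, Sftpa1 and Sftpd were modestly higher in the 1V209-Cho-Lip library and Abca3 was lower, while Sftpc and Lamp3 differed little between the libraries. None of these 6 genes was past 1.5-fold. Of the 8 genes measured in this class, 0 were past the fold upward and 2 downward, the airway genes Scgb1a1 and Scgb3a2, against 22.9% of the 8714 measured genes past it in either direction, 13.5% higher and 9.44% lower. The median ratio was 0.957 over the 8 genes and 1.01 over all genes. Scgb3a1, with 1 and 3 UMIs, and Reg3g, with 2 and 0, could not be compared.

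Sftpc (ENSMUSG00000022097, chr14:70520949-70524081 on the minus strand, mm10) encodes SP-C, which AT2 cells make in the adult lung. It took up 19.1% and 20.8% of all UMIs of the class, at 191396 and 207945 CPM (ratio 0.920, 0.916 to 0.925). Over single cells the middle 50% ran from 156922 to 230054 CPM in the 1V209-Cho-Lip and from 158688 to 265965 CPM in the PBS library. The cells of both libraries therefore overlapped over most of their range. Sftpb (ENSMUSG00000056370, chr6:72304610-72314371, plus strand) encodes SP-B, without which lamellar bodies do not form properly. It stood at 11132 and 9212 CPM (ratio 1.21, 1.18 to 1.24), with cell medians of 10966 and 9324 CPM.

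The collectin genes Sftpa1 (ENSMUSG00000021789, chr14:41131782-41136452, plus strand) and Sftpd (ENSMUSG00000021795, chr14:41172214-41185149, minus strand) are near neighbours on chromosome 14. Sftpa1 stood at 28730 and 22637 CPM (ratio 1.27, 1.25 to 1.29), and its cell medians were 27807 and 20984 CPM. Sftpd stood at 4376 and 3348 CPM (ratio 1.31, 1.26 to 1.36), with cell medians of 3663 and 2823 CPM. For both genes the 1V209-Cho-Lip cells lay higher, with a wide overlap between the libraries. Against Sftpc in the same cells, Sftpa1 had 15 and 10.9, Sftpb 5.82 and 4.43, and Sftpd 2.29 and 1.61 UMIs per 100 Sftpc UMIs. All 3 genes thus made up more of the surfactant protein RNA in the 1V209-Cho-Lip library. Across the alternatives of processing the Sftpb ratio ran from 1.13 to 1.38, that of Sftpa1 from 1.22 to 1.35 and that of Sftpd from 1.23 to 1.44.

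Abca3 (ENSMUSG00000024130, chr17:24351950-24410201, plus strand) encodes the transporter that loads phospholipid into lamellar bodies, and Lamp3 (ENSMUSG00000041247, chr16:19653378-19706375, minus strand) a protein of the lamellar body membrane. Abca3 stood at 521 and 637 CPM (ratio 0.817, 0.741 to 0.901), and Lamp3 at 865 and 870 CPM (ratio 0.993, 0.918 to 1.08). A cell held a median of 4 and 4 Abca3 UMIs and 7 and 6 Lamp3 UMIs. The lamellar body genes therefore did not share the higher level of the collectins and Sftpb. Without the cell richest in Abca3 in each library, of which the 1V209-Cho-Lip one held 48 UMIs, the Abca3 ratio was 0.791.

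The 5′ flanking DNA of Sftpb and Sftpa1, which stood higher, and of Abca3, which stood lower, is shown to set these 3 AT2 genes side by side. RefSeq promoters of GRCm38.p6 were given for 6 of the 10 genes (Sftpb, Sftpa1, Abca3, Lamp3, Scgb3a1 and Reg3g). Each stretch ends at the base before the earliest start in either RefSeq or GENCODE, which for Abca3 is that of RefSeq and lies before the GENCODE start given above: chr6:72304360-72304609 for Sftpb, chr14:41131538-41131781 for Sftpa1 and chr17:24351773-24351920 for Abca3, all on the plus strand and written 5′ to 3′. Capitals mark TATAA on the gene's strand and CAAG on either strand (CAAG or CTTG), with CTCAAG on either strand (CTCAAG or CTTGAG), which overlaps CAAG; CAAG is the core known to be bound by NKX2-1, a transcription factor of surfactant genes.
Sftpb: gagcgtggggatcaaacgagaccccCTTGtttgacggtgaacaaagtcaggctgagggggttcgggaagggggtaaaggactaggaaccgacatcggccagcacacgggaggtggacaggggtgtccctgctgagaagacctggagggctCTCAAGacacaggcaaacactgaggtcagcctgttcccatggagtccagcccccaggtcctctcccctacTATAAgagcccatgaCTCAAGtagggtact
Sftpa1: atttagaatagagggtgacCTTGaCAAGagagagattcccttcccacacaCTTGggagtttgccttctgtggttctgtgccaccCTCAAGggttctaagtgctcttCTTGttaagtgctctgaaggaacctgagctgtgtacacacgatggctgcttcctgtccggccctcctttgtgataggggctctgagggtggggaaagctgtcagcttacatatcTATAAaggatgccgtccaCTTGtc
Abca3: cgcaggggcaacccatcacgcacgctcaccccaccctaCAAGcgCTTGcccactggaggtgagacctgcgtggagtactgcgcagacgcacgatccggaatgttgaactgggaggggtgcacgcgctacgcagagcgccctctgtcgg

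The Sftpb stretch held 1 TATAA, 30 bases before its end, 3 CAAG and 2 CTCAAG, and the Sftpa1 stretch 1 TATAA, 24 bases before its end, 6 CAAG and 1 CTCAAG. The 148 bases of Abca3 held no TATAA, 2 CAAG and no CTCAAG. Of 32851 RefSeq windows cut to the 250 bases of Sftpb, 16.0% held TATAA, 86.6% CAAG and 13.3% CTCAAG, and cut to the 244 bases of Sftpa1, 15.7%, 86.1% and 13.1%. Cut to the length of Abca3, 9.48%, 72.7% and 8.47% did. CAAG is thus found in most windows, and a match is a description of letters and not of a bound site.

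The AT2-like class came from 3 epithelial clusters that the libraries filled unequally. Cluster 0 held 89 and 41 cells, cluster 1 held 59 and 121, and cluster 10 held 24 and 19. Within cluster 0 the ratio was 1.04 for Sftpc, 1.38 for Sftpb, 1.35 for Sftpa1 and 1.30 for Sftpd, and within cluster 1 it was 0.978, 1.18, 1.31 and 1.44. The higher level of Sftpb, Sftpa1 and Sftpd thus stood in each of the larger clusters, while that of Sftpc was close to 1 in both. Abca3 was at 0.880 in cluster 0 and at 0.664, past the fold, in cluster 1, where Lamp3 was at 0.854. Cluster 10 differed from both: the 10 genes made up 1.70% and 2.83% of its UMIs, against 23.5% and 22% in cluster 0 and 28.1% and 27.5% in cluster 1. Its Sftpc level was 7969 and 12807 CPM, while Abca3 stood at 1021 and 1012 CPM and Lamp3 at 1088 and 1553 CPM, above the class as a whole. Sftpb stood at 2325 and 3053 CPM there, Sftpa1 at 2123 and 2059 CPM and Sftpd at 1021 and 1644 CPM, so that the higher level of the other clusters was not seen. With 19 PBS cells, under the minimum of 20, no ratio is given for cluster 10.

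**Figure D2:**
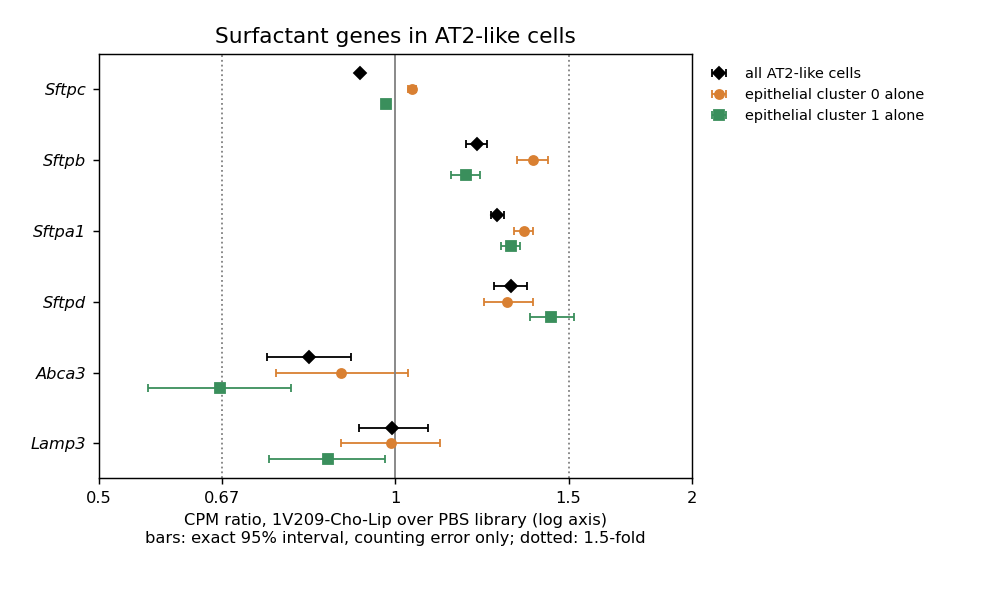
CPM ratio of the 6 surfactant genes, 1V209-Cho-Lip over PBS library (log axis), in all AT2-like cells and in epithelial clusters 0 and 1 alone, with exact 95% intervals for counting error. Sftpb, Sftpa1 and Sftpd lie between 1.18 and 1.44, and Abca3 lies below 1 in each set.

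**Figure D3:**
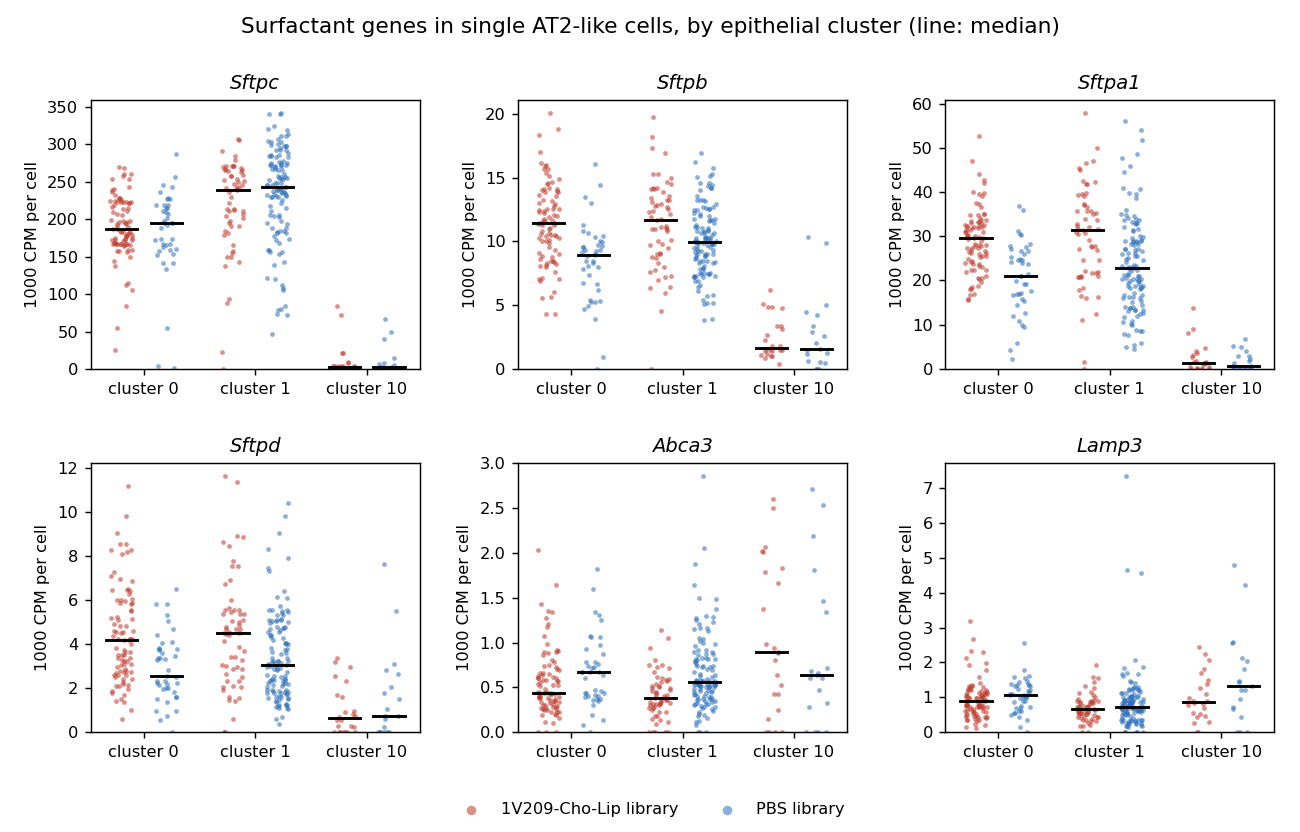
Level of the 6 surfactant genes in single AT2-like cells (1000 CPM per cell), by epithelial cluster and library, with 1 point per cell and a line at the median. In cluster 1 the Sftpa1 medians were 31356 and 22918 CPM, and cluster 10 lies far below the others for Sftpc, Sftpb, Sftpa1 and Sftpd.

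Other measures also differed between the AT2-like cells of the libraries. The median depth was 8934 and 6441 UMIs per cell. The 6 neutrophil markers together stood at 497 and 49.5 CPM, with 6 and 5 of them detected, the 10 club markers at 11101 and 6368 CPM, with 9 and 8 detected, and the 11 AT2 markers at 14090 and 17126 CPM, all detected. The part of these in the ratios was not tested. Thinning every cell to 1000 UMIs left ratios of 0.890 for Sftpc, 1.13 for Sftpb, 1.26 for Sftpa1, 1.23 for Sftpd and 0.834 for Abca3. Within each library, levels of the surfactant proteins went together over cells: Spearman's rho between Sftpa1 and Sftpd was 0.63 over 172 cells and 0.59 over 181, and between Sftpc and Sftpa1 0.61 and 0.60. Lamp3 did not follow, with a rho against Sftpc of -0.21 and -0.13. These cells share a library and their depth, and shares of one total are not independent.

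Of 31 other genes of surfactant synthesis, 29 were measured in AT2-like cells, 4 of them (13.8%) past the fold upward and 0 downward, against 13.5% and 9.44% of all measured genes, with a median ratio of 1.01 that equals the median of all genes. The share past the fold upward was thus that of all genes. The 4 were the transcription factor genes Nkx2-1, Foxa1 and Klf5 and the phospholipid gene Chpt1. Nkx2-1, a master regulator of lung epithelium, had the highest ratio of the list, at 155 and 56.8 CPM, or 2.73 (2.10 to 3.57). The genes with most UMIs stood near 1: the fatty acid desaturase gene Scd1 at 0.881 (0.835 to 0.930), the cathepsin gene Ctsh, whose product processes SP-B and SP-C, at 0.994 (0.924 to 1.07), the flippase gene Atp8a1 at 1.01 (0.910 to 1.11), and the elongase gene Elovl1 at 0.847 (0.764 to 0.938). The lowest was Pcyt1a, which encodes the rate-limiting enzyme of phosphatidylcholine synthesis, at 53.2 and 79.7 CPM, or 0.667 (0.494 to 0.898). A minimum of 100 UMIs over both libraries in place of 20 left 2 genes past the fold, both upward. The share of all genes past the fold was not counted at that minimum, so these 2 cannot be set against it.

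The low Scgb1a1 ratio of AT2-like cells, 0.347 (0.328 to 0.368) from 1115 and 3209 CPM, rested largely on 1 cell. That PBS cell held 2133 of 4347 Scgb1a1 and 23 of 33 Scgb3a2 UMIs, with 25744 UMIs in all and 28 of Sftpc. Without the cell richest in each gene in each library, the Scgb1a1 ratio was 0.627, and Scgb3a2 had 2 and 10 UMIs. Cell medians went the other way for Scgb1a1, at 610 and 465 CPM, and adding the mixed epithelial clusters turned its ratio to 1.75. After thinning, the share of AT2-like cells with an Scgb1a1 UMI, 46.7% and 43.9%, lay within the range of classes that should not make it. That share was 25.3% and 27.6% in alveolar macrophage-like, 50.2% and 50.1% in T-like and 63.4% and 67.6% in neutrophil-like cells.

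In club-like cells 1 of the 10 genes, Reg3g, was past the fold upward and 4 were past it downward, Sftpc, Sftpa1, Abca3 and Lamp3, against 29.9% of 2234 measured genes past it in either direction, 15.7% higher and 14.2% lower. The median ratio was 0.741 over the 10 genes and 0.997 over all. The 4 lower genes are AT2 genes, and the class held 2 sets of cells. Cells with at least 10% of their UMIs from Scgb1a1 numbered 64 and 87. Cells with at least 5% from Sftpc numbered 7 and 20, all of them under 10% for Scgb1a1, and 0 cells met both limits. The other 4 and 1 cells met neither. The Sftpc-rich cells were shallow, with medians of 1600 and 1611 UMIs. They had UMIs of 10 and 11 of the 11 AT2 markers and of 2 and 5 of the 10 club markers. Summed AT2 markers stood at 9591 and 14458 CPM in these cells, against 780 and 1010 CPM in the Scgb1a1-rich cells. Summed club markers stood at 12422 and 8122 CPM in them, above the AT2 markers in the 1V209-Cho-Lip library only. Club markers stood at 21687 and 18243 CPM in the Scgb1a1-rich cells and at 11101 and 6368 CPM in AT2-like cells. The name club-like is thus in doubt for the Sftpc-rich cells, and values without them are given beside those of the class. At a clustering resolution of 1 in place of 2, the resolution of the epithelial step was lowered too. There 7 and 16 of the Sftpc-rich cells fell among the AT2-like cells, against 0 and 0 of the Scgb1a1-rich cells. No club-like class was formed at that setting, so the cells could not have stayed in it. The limits of 5% and 10% were chosen after the values were seen.

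**Figure D4:**
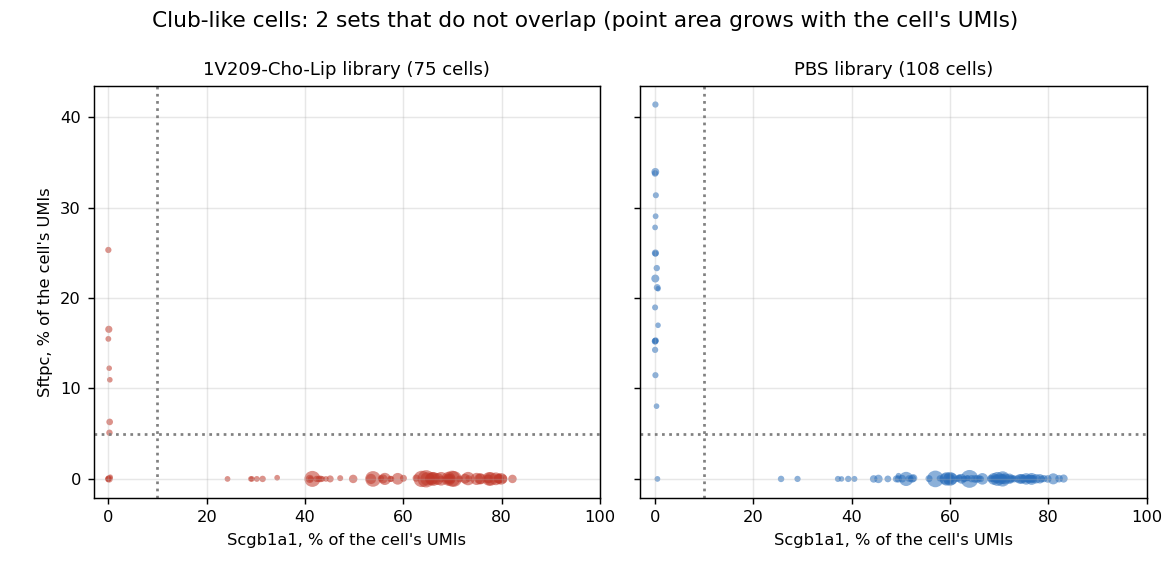
Share of each club-like cell's UMIs that came from Scgb1a1 (horizontal) and Sftpc (vertical), 1 panel per library, with point area growing with the cell's UMIs and dotted lines at 10% and 5%. The 7 and 20 Sftpc-rich cells lie apart from the 64 and 87 Scgb1a1-rich cells.

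In the 64 and 87 Scgb1a1-rich cells 2 genes were past the fold, Reg3g upward and Abca3 downward, against 29.2% of 1967 measured genes in either direction, 18.2% higher and 11.0% lower. The mean of each cell's CPM turned the Abca3 ratio of the whole class from 0.480 to 1.06. The ratios of Sftpc, Sftpb, Sftpa1 and Sftpd lay within 1.5-fold. Sftpc stood at 99.1 and 92.5 CPM (ratio 1.07, 0.725 to 1.59), where the whole class had 2387 and 15174 CPM and a ratio of 0.157. Since the Sftpc-rich cells were left out by their Sftpc share, this Sftpc level and ratio follow in part from that choice. Sftpb stood at 853 and 797 CPM (ratio 1.07, 0.940 to 1.22), Sftpd at 306 and 246 CPM (1.24, 0.989 to 1.56), and Sftpa1 at 362 and 533 CPM (0.680, 0.569 to 0.813). Abca3 had 18 and 31 UMIs (ratio 0.510, 0.269 to 0.941) and Lamp3 0 and 1. Sftpb and Sftpd stood above the level of lymphocyte-like cells, 11.9 and 11.3 CPM for Sftpb and 7.85 and 4.37 CPM for Sftpd, whereas Sftpc lay below that level, 134 and 228 CPM. Sftpa1 also stood above such cells, with 27.3 and 26.5 CPM in T-like cells without the richest cell in each library. Both Sftpb and Sftpd are known to be made in airway secretory cells as well as in AT2 cells, and Sftpc is not. The source of the RNA of these genes in the Scgb1a1-rich cells was not tested.

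Scgb1a1 (ENSMUSG00000024653, chr19:9083636-9087958, minus strand) took up 64.5% and 61.5% of all UMIs of the club-like class. Its ratio was 1.05 (1.04 to 1.05) in the class, with cell medians over the class of 626363 and 629161 CPM. The main club-cell secretory gene thus differed little between the libraries in the class. The ratio of 1.01 (1.00 to 1.01) in the Scgb1a1-rich cells adds no check, since these cells were picked by their Scgb1a1 share. Scgb3a2 (ENSMUSG00000038791), a secretoglobin of the distal airway, stood at 5895 and 8018 CPM in the class, a ratio of 0.735 (0.704 to 0.768), with cell medians of 2608 and 5285 CPM. It had a UMI in 80.0% and 80.6% of cells, and its ratio was 0.707 in the Scgb1a1-rich cells. The lower level of Scgb3a2 did not pass 1.5-fold.

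Scgb3a1 (ENSMUSG00000064057, chr11:49663610-49665118, plus strand), a secretoglobin of the larger airways, had 2824 and 1905 UMIs in club-like cells, but only 5 and 12 cells held any. One cell per library held 2819 and 1521 of these UMIs. Without them 5 and 384 UMIs remained, and the ratio went from 1.36 to 0.0120. The same pair of cells held 104 of 105 and 9 of 13 of the class's Reg3g UMIs, so that the Reg3g ratio of 7.39 (4.14 to 14.3) rests on the 1V209-Cho-Lip cell. Each of these 2 cells was deep, with 28202 and 21535 UMIs, and rich in Scgb1a1, with 11707 and 10999 UMIs.

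Of the 30 genes of the airway defence list, 17 were measured in club-like cells, 5 of them (29.4%) past the fold upward and 3 (17.6%) downward, against 15.7% and 14.2% of all measured genes, with a median ratio of 1.14 against 0.997 over all genes. The 5 were the mucin gene Muc5b, the secreted airway genes Bpifa1 and Bpifb1, the trefoil gene Tff2 and the acute-phase gene Saa3. How far single cells, such as the deep 1V209-Cho-Lip cell described above, held the UMIs of the list genes was not tested. Saa3 had the highest ratio, 21.0 (5.5 to 179), from 46 and 2 UMIs. Bpifa1 stood at 1638 and 1082 CPM (1.51, 1.37 to 1.67), and of the genes with most UMIs the haptoglobin gene Hp was at 1.16 (1.08 to 1.25) and Wfdc2 at 0.748 (0.703 to 0.796). The lowest was the lysozyme gene Lyz2 at 403 and 1399 CPM (0.288, 0.249 to 0.332). AT2 cells are also known to express Lyz2, and it was counted here with the Sftpc-rich cells included. The part of those cells in the Lyz2 ratio was not tested. The adaptor gene Myd88, with 11 and 22 UMIs, and Nfkbiz, with 8 and 14, were the other 2 past the fold downward. A minimum of 100 UMIs left 9 genes measured and 1 past the fold in each direction, with no share of all genes counted at that minimum. The 6 neutrophil markers stood at 270 and 303 CPM in this class.

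Reg3g (ENSMUSG00000030017, chr6:78466269-78468872, minus strand) had 704 and 75 UMIs in the whole libraries, 15.3 and 1.61 CPM, in 37 and 12 cells. A single ciliated-like cell held 513 of the 704 UMIs, or 72.9%, and another held 52 of the 75, or 69.3%. Both cells had UMIs of all 9 ciliated and 7 of 10 club markers and only 10 and 4 UMIs of Scgb1a1. The top 3 cells of each library held 93.0% and 85.3% of the UMIs. Without the richest cell the library totals were 191 and 23 UMIs, at 4.14 and 0.495 CPM (ratio 8.37, 5.42 to 13.5). The richest remaining cell of the 1V209-Cho-Lip library, the club-like cell above, still held 104 of those 191 UMIs. Outside the epithelium Reg3g had 30 and 7 UMIs, and AT1-like cells had 0 in each library, which allows up to 4.09 and 11.2 CPM.

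In ciliated-like cells, too, the secretory genes lay in few cells. Scgb1a1 was at 120284 and 129865 CPM there, but 2 and 1 cells with at least 10% of their UMIs from it held 98.1% and 98.1%, and without them it stood at 3167 and 3488 CPM. Scgb3a1 had 331 and 13 UMIs, of which 1 cell held 328 and 11, and Scgb3a2 had 1489 and 240, of which 1 cell held 823 and 238. With 43 and 27 cells, ratios of these genes in this class describe single cells. Lamp3 had 0 UMIs in both libraries, which allows up to 7.97 and 15.2 CPM.

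In AT1-like cells 2 of 6 measured genes were past the fold downward, Sftpc and Sftpb, and 0 upward, against 30.6% of 6519 genes past it in either direction, 20.2% higher and 10.4% lower. The median ratio was 0.797 over the 6 genes and 1.04 over all. Sftpc stood at 2248 and 5401 CPM, but 1 cell per library held 1483 of 1648 and 1371 of 1448 of its UMIs, and the same cells held 93 of 109 and 68 of 76 of the Sftpb UMIs. Without them Sftpc stood at 229 and 298 CPM and Sftpb at 22.2 and 31.0 CPM, and 0 measured genes were past the fold. Sftpa1 was then under the minimum of 20 UMIs, with 12 and 7, at a ratio of 0.614 (0.223 to 1.84). Lymphocyte-like cells stood at 134 and 228 CPM for Sftpc and at 11.9 and 11.3 CPM for Sftpb, so the remaining AT1-like cells lay above them by less than 3-fold. Scgb1a1 stood at 1030 and 806 CPM (ratio 1.28, 1.10 to 1.49), but at a mitochondrial limit of 10% or with another clustering seed the ratio was 0.0795 and 0.0799. Under both settings a PBS cell with 2222 Scgb1a1 UMIs, club-like as reported, fell among the AT1-like cells, whose 85 and 86 PBS cells then held 3548 UMIs of the gene in place of 216. Abca3 stood at 109 and 119 CPM, in 24.4% and 27.7% of AT1-like cells, above the 35.4 and 28.0 CPM of lymphocyte-like cells.

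Outside the epithelium, RNA of Scgb1a1 and Sftpc was found in all classes. Of 11684 and 12164 non-epithelial cells, 84.4% and 77.6% had an Scgb1a1 UMI and 33.6% and 37.8% an Sftpc UMI. After thinning to 1000 UMIs per cell, 56.9% (56.0 to 57.8) and 51.8% (50.8 to 52.7) had Scgb1a1 and 14.6% (14.0 to 15.3) and 18.1% (17.4 to 18.8) had Sftpc. By class the thinned Scgb1a1 share was 24.1% and 27.8% in dendritic-cell-like, 25.3% and 27.6% in alveolar macrophage-like, 50.2% and 50.1% in T-like, 64.5% and 57.4% in capillary endothelial-like and 63.4% and 67.6% in neutrophil-like cells. For Sftpc it was 15.7% and 24.9% in neutrophil-like and 13.1% and 16.8% in T-like cells. Such low levels in cells that do not make these proteins are the background against which the other shares are read. As a share of UMIs, the Sftpc background was lower in the 1V209-Cho-Lip library in most non-epithelial classes. The ratio was 0.505 in neutrophil-like, 0.589 in lymphocyte-like and 0.719 in capillary endothelial-like cells. It stood at 0.982 in large vessel endothelial-like and at 1.12 in smooth muscle or pericyte-like cells. Median depth, in the same order of classes, was 2296 and 1395, 2816 and 2292, 1608 and 1731, 2388 and 2515, and 1758 and 1651 UMIs per cell. The part of depth in these ratios was not tested. Without the richest cell in each library, the Sftpc ratio was 0.583 in T-like, 0.601 in monocyte-like and 0.650 in B-like cells. It was 0.754 in fibroblast-like and 0.751 over all non-epithelial cells. It was not below 1 in large vessel endothelial-like (1.01), smooth muscle or pericyte-like (1.12) and dendritic-cell-like cells (1.13).

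A few non-epithelial cells were rich in Scgb1a1. Cells with at least 10% of their UMIs from it numbered 15 and 27 and held 62.8% and 68.2% of the non-epithelial Scgb1a1 UMIs. They lay in several classes, with 4 and 7 among capillary endothelial-like, 2 and 5 among T-like and 0 and 4 among NK-like cells, and the class levels followed them. The level in smooth muscle or pericyte-like cells was 3831 and 35809 CPM, of which 1 PBS cell held most. Without the richest cell in each library it was 2255 and 1279 CPM. In T-like cells 5046 and 1979 CPM also included such cells, although the thinned share was nearly equal. Leaving out the cells rich in Scgb1a1 or Sftpc, the non-epithelial ratio of Scgb1a1 went from 1.08 to 1.27, and after thinning it was 0.946.

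Relative to Sftpc, the other surfactant protein genes were higher in the 1V209-Cho-Lip library in both lymphocyte-like and AT2-like cells. Abca3 and Lamp3 were not alike in these 2 classes. The CPM levels behind the proportions also differed. In AT2-like cells Sftpb, Sftpa1 and Sftpd themselves stood higher, and Sftpc differed little. In lymphocyte-like cells Sftpc stood lower, Sftpb was nearly equal and Sftpd stood higher, by the CPM given above. Per 100 Sftpc UMIs these cells held 21.5 and 12.3 Sftpa1, 8.82 and 4.95 Sftpb and 5.84 and 1.91 Sftpd UMIs. Abca3 stood at 26.3 and 12.3 there, against 0.272 and 0.306 in AT2-like cells, and Lamp3, with 7 and 40 UMIs, at 0.802 and 1.45, against 0.452 and 0.419. In neutrophil-like cells there were 18.3 and 13.5, 8.68 and 7.59, and 3.08 and 1.77 UMIs of Sftpa1, Sftpb and Sftpd. For the airway genes, Scgb3a2 stood at 8.79 and 13.5 UMIs per 1000 of Scgb1a1 in lymphocyte-like cells and at 9.15 and 13 in club-like cells. In lymphocyte-like cells the proportion thus lay close to that of club-like cells for Scgb3a2 in each library. Abca3 and Lamp3 lay above the AT2-like proportions in both libraries. For Sftpb, Sftpa1 and Sftpd the PBS proportions lay only slightly above those of PBS AT2-like cells, at 4.43, 10.9 and 1.61. The gap was wider in the 1V209-Cho-Lip library, where AT2-like cells held 5.82 Sftpb and 2.29 Sftpd UMIs. Whether the PBS gaps exceed counting error was not tested. Other classes departed from club-like cells, with 10.1 and 8.66 UMIs of Scgb3a2 per 1000 of Scgb1a1 in neutrophil-like, 8.52 and 17.0 in capillary endothelial-like and 8.34 and 1.52 in fibroblast-like cells. The lymphocyte-like counts are small for Sftpd, at 51 and 53 UMIs.

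**Figure D5:**
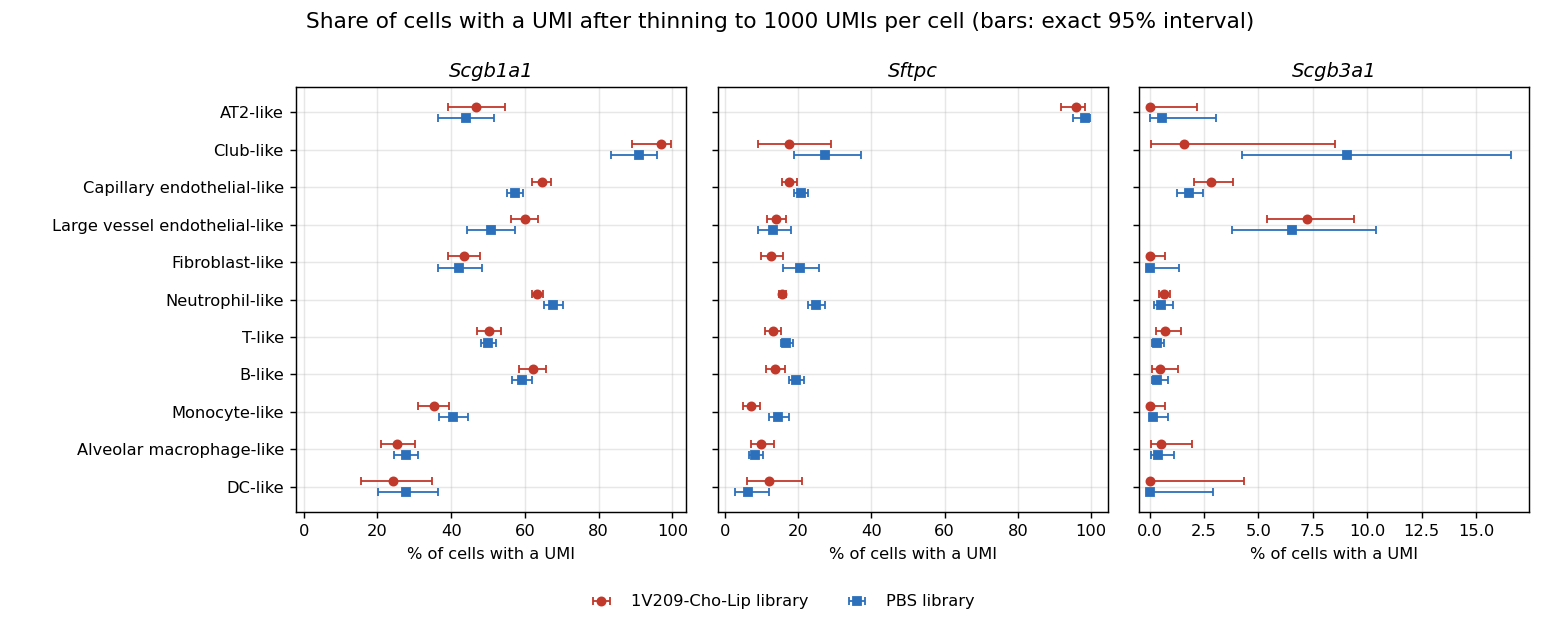
Share of cells with a UMI of Scgb1a1, Sftpc and Scgb3a1 after thinning each cell to 1000 UMIs, by class and library, with exact 95% intervals. Scgb1a1 and Sftpc are found in every class, whereas Scgb3a1 is at 7.21% and 6.56% in large vessel endothelial-like cells and at 0.703% and 0.316% in T-like cells.

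Scgb3a1 departed from this background in endothelial cells. Large vessel endothelial-like cells held 458 and 96 Scgb3a1 UMIs, in 82 of 693 and 29 of 251 cells, or 11.8% (9.52 to 14.5) and 11.6% (7.88 to 16.2). In T-like cells, with medians of 3210 and 2650 UMIs against 2388 and 2515, the share was 0.881% and 0.647%, and in fibroblast-like cells, which were deeper, it was 0.377% and 1.71%. Per 1000 Scgb1a1 UMIs the large vessel cells had 208 and 157 of Scgb3a1, against 6.93 and 5.35 in club-like and 1.10 and 1.21 in T-like cells. Their cells with and without Scgb3a1 had the same median of 2 Scgb1a1 UMIs. Capillary endothelial-like cells lay between, with 182 and 175 UMIs in 3.97% and 2.90% of cells.

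Between the libraries, the large vessel level of Scgb3a1 was 225 and 108 CPM (ratio 2.09, 1.68 to 2.64), while the shares of cells were alike. One 1V209-Cho-Lip cell held 169 of the 458 UMIs, and without the richest cell in each library the levels were 143 and 91 CPM and the ratio 1.57 (1.22 to 2.03). This class provided most of the non-epithelial Scgb3a1 UMIs of the 1V209-Cho-Lip library, 458 of 759, and it made up 5.65% and 1.98% of kept cells. The non-epithelial ratio of 2.12 (1.87 to 2.41) thus mixes level with class share. Over all non-epithelial cells 2 of 10 genes were past the fold upward, Scgb3a1 and Reg3g, and 0 downward, against 35.7% of 19839 genes past it in either direction, 13.4% higher and 22.3% lower. With called doublets kept the Scgb3a1 ratio was 1.41 and no longer past the fold, and at a clustering resolution of 1 Lamp3 was past it downward at 0.666.

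Abca3 outside the epithelium was not spread as Sftpc was. Thinned shares of cells with an Abca3 UMI were 45.0% and 45.6% in AT2-like cells. In dendritic-cell-like cells they were 13.3% (6.81 to 22.5) of 83 and 3.97% (1.30 to 9.02) of 126 cells. They were 6.47% and 6.74% in alveolar macrophage-like, 6.45% and 6.15% in monocyte-like and 5.82% and 5.76% in capillary endothelial-like cells, and 0.579% and 2.18% in fibroblast-like and 0.575% and 0.304% in NK-like cells. Within each library these shares differed between classes beyond counting error. Its non-epithelial ratio was 0.965 (0.897 to 1.04), which became 1.13 under median-of-ratios and TMM scaling. Lamp3 had 0 UMIs in the 20 and 42 mature dendritic-cell-like cells, which allows up to 18 and 10.1 CPM there. Its level of 865 and 870 CPM in AT2-like cells lies far above these limits.

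Alveolar macrophage-like cells, which numbered 374 and 781, showed little difference in genes of surfactant clearance. Of 16 measured genes 0 were past the fold, against 16.3% of 11183 genes past it in either direction, 9.91% higher and 6.41% lower, and the median ratio was 1.01 against 0.995 over all genes. The lipid droplet gene Plin2 stood at 0.985 (0.952 to 1.02), the cholesterol exporter gene Abcg1 at 0.884 (0.850 to 0.919), the lipase gene Lpl at 0.997 (0.959 to 1.04) and the cholesterol carrier gene Npc2 at 0.976 (0.922 to 1.03). The highest ratio was that of the exporter gene Abca1, 1.46 (1.34 to 1.59), and the lowest that of the lysosomal phospholipase gene Pla2g15, 0.683 (0.617 to 0.757). With called doublets kept, 1 gene was past the fold upward. Their own surfactant RNA was low, with Sftpc at 64.3 and 147 CPM, or 63.0 and 91.3 CPM without the richest cell in each library.

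In the whole libraries 2 of the 10 genes were past the fold upward, Scgb3a1 at 1.94 (1.84 to 2.04) and Reg3g at 9.46 (7.45 to 12.2), and 0 downward, against 34.1% of 20415 genes past it in either direction, 14.0% higher and 20.2% lower. The median ratio was 1.21 over the 10 genes and 0.873 over all genes. The cell with most UMIs held 59.6% and 61.9% of the Scgb3a1 UMIs. Sftpc stood at 8243 and 8803 CPM, a ratio of 0.936 that became 1.07 under median-of-ratios and TMM scaling, which shifted ratios of the whole library by 0.20 and those of non-epithelial cells by 0.23 on the log2 scale. Whole-library values mix the level per cell with the share of each class, and AT2-like cells made up 1.40% and 1.43% of kept cells and club-like cells 0.611% and 0.853%.

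Over 36 sums of 18 classes by library, the genes whose log2 level went most with Sftpc among 12834 genes were Slc34a2 (Pearson's r of 0.95), Bex2 (0.946), S100g (0.938), Egfl6 (0.925) and Tfcp2l1 (0.921), of which Slc34a2, S100g and Egfl6 had served to name AT2-like cells. For Scgb1a1 they included Cyp2f2 (0.931), which had served to name club-like cells, Gpx2 (0.882), Lypd2 (0.872) and Pon1 (0.854). The sums share libraries and differ in depth, and the r values are descriptions.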

How the data were processed

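The deposited files hold raw UMI counts per gene and barcode, written by Cell Ranger 9.0.1 per the file headers, on mm10 per the submitters' processing notes; which gene annotation they used is not given in the sources used here. Positions come from GENCODE vM21, which 52081 of 55357 identifiers matched. A barcode was kept with 500 or more UMIs, 200 or more genes and no more than 20% mitochondrial UMIs; 20 of 13740 and 62 of 14622 failed. Scrublet, at an expected rate of 0.8% per 1000 barcodes, called 1455 (10.6%) and 1906 (13.0%) doublets, which were removed. Clusters were built on variable genes without the 10 genes, the 3 gene lists and mitochondrial, ribosomal, immunoglobulin, T-cell receptor and haemoglobin genes (30 components, 15 neighbours, Leiden resolution 2; epithelial cells again with 20 components, resolution 1). A name needed at least 3 markers and 50% of a list at log2 1 above the rest, and a cluster with a close rival lineage was called mixed. These thresholds, the exact neighbour search and the platelet, heart muscle and mast cell lists were set after clusters had been seen.

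Ratios of summed counts have exact conditional binomial intervals and shares Clopper-Pearson ones, at 95%, for counting error only; a count of 0 was given a limit of 3 counts. Classes needed 20 cells per library. With 1 library per group nothing was tested. Ratio and interval code was tested on simulated data. All 10 genes were described in the main classes. Of each list the 4 genes with most UMIs and the extremes by ratio were named, and the 5 genes of highest r for Sftpc and Scgb1a1, of which 1 is not reported here; other list genes past the fold were named after their values were seen. The 10 genes and the lists were chosen with earlier results of these data known. Thinning drew 1000 UMIs per cell and left out shallower cells. Alternatives covered filters, doublets, clustering, per-cell gates, scaling and single cells. Software comprised Scanpy 1.11.5 with igraph 0.11.9 and scikit-learn 1.9.0; scipy 1.17.1 gave the intervals, on numpy 2.4.6 and pandas 2.3.3 under Python 3.11.15, and matplotlib 3.10.9 the plots.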

Additional observations from a re-analysis of the deposited data

How the results depend on the processing

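No paired analysis was possible because each group is 1 library. In AT2-like cells the count of genes past 1.5-fold, 2 as reported, was 1 after thinning to 1000 UMIs, 0 after subtraction of the lymphocyte-like level, 1 without the richest cell in each library, 4 (all higher) with the mixed epithelial clusters added and 1 in epithelial cluster 1 alone. There the Scgb1a1 ratio turned to 1.69 for cells gated one by one at 3 distinct markers and to 1.75 with the mixed clusters, which turned Scgb3a2 to 2.76. In AT1-like cells the count, 2 as reported, was 4 at a mitochondrial limit of 10%, 4 with another clustering seed, 4 by the mean of each cell's CPM, 1 after thinning, 0 without the richest cell, and 5 and 4 for cells gated one by one at 3 and 5 markers. These 2 gates turned the ratio to 1.14 and 1.03 for Sftpc and to 1.91 and 1.34 for Sftpb; the gate at 3 markers took 785 and 460 cells, 335 and 221 of them at the limit. In club-like cells the count, 5 as reported, was 3 at the 5-marker gate, 3 after thinning and 2 without the Sftpc-rich cells. Leaving out those cells, which were picked by their Sftpc share, turned the Sftpc ratio to 1.08. The mean of each cell's CPM turned Abca3 to 1.06. In non-epithelial cells 2 became 1 with called doublets kept, where Scgb3a1 was at 1.41.

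At a minimum of 100 UMIs, 2 genes of the surfactant synthesis list and 2 of the airway defence list were past the fold, against 4 and 8. The share of all genes was not counted at that minimum. With called doublets kept, 1 gene of the clearance list was, against 0. Unthinned shares of non-epithelial cells were 33.6% and 37.8% for Sftpc and 84.4% and 77.6% for Scgb1a1. Of 589 single-gene ratios under these and the other alternatives, 378 stayed within their interval. In all, 51 crossed 1: the 9 named above, of genes past the fold as reported, and others of genes that were not, such as Scgb1a1 in AT1-like cells, at 0.0795 with the mitochondrial limit of 10% and 0.0799 with another seed against 1.28, Scgb3a2 in non-epithelial cells, at 1.15 at a clustering resolution of 1 against 0.719, and Sftpd in club-like cells, at 1.12 with the mitochondrial limit against 0.892. By class 15 were in AT1-like, 5 in AT2-like, 8 in club-like and 7 in non-epithelial cells and 16 in the whole library. Where no construction of the alternative shows the cause, the cause was not tested. At a clustering resolution of 1 no club-like class was formed, and epithelial cluster 10 alone was not run, with under 20 PBS cells. The alternatives with the richest cell, the mixed clusters, single clusters and Sftpc- or Scgb1a1-rich cells were chosen after seeing the data. Counts of under 20 UMIs limit Reg3g, Scgb3a1 and Lamp3 outside their main classes.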
